A study of Drosophila melanogaster with 27 samples.

Results

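The mRNA content of the lysates before any pull-down was compared between Ythdf mutant and wild-type flies. These input libraries make up 9 of the 27 libraries of the study and were fitted without the others. They are 4 mutant inputs (replicates 1, 2, 3 and 7), from the stock CG6422 with the genotype Ythdf#0/#0, and 5 wild-type inputs (replicates 1, 2, 3, 5 and 7), from the stock w1118. The remaining libraries hold RNA pulled down from the same lysates with antibodies to Fmr1 or with mouse IgG, and the series asks how Ythdf affects the choice of Fmr1 targets and the growth of axons. The labels do not describe the mutation, give neither sex nor exact age, and call the tissue whole brain, while the protocol describes lysates of 200 pupal heads per genotype. The stocks are not stated to share a genetic background, so a difference between them cannot be told apart from a difference caused by the loss of Ythdf. All 17807 genes of the count table were considered, and 10435 had enough counts to be tested. Values below are CPM, a gene's reads per fixed total of gene reads, scaled between libraries with TMM, in the order of the replicates just given.

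Ythdf is a cytoplasmic protein that binds mRNA carrying N6-methyladenosine (m6A), a methyl mark on internal adenosines. The mark is written by a complex around the methyltransferase Mettl3 and its partner Mettl14, with Fl(2)d, Virilizer, Nito, Flacc and Hakai as further subunits. In the fly it is most abundant in the nervous system, where Ythdc1 reads it in the nucleus and Ythdf in the cytoplasm. Fmr1 is the fly member of the FMRP family, known from fragile X syndrome, and represses the translation of mRNAs it binds.

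Reads counted in genes came to 9207492 to 15459370 in the mutant inputs and 5623123 to 13240187 in the wild-type inputs. Of the table's reads, 54.4 to 63.4% and 37.3 to 57.8% were not assigned to a gene. Most of these were left out because their alignment was not unique (41.9 to 47.2% and 27.9 to 45.7% of the table's reads). Reads outside annotated features made up 9.83 to 14.4% and 6.66 to 11.4%. The first principal component of log2 CPM separated the genotypes and held 49.7% of the variance. Replicate 1 of the wild type lay farthest out on it, had the fewest gene counts and the smallest share of small structured RNAs. All 16 neuron markers, all 14 photoreceptor markers, all 23 muscle markers and 18 of 19 fat body markers passed the filter. Summed muscle markers came to 43589 to 62572 CPM in mutant and 60943 to 77933 CPM in wild-type inputs, and summed neuron markers to 8169 to 9087 and 8810.5 to 13631 CPM. RNA of muscle, fat body and eye was thus measured beside that of the brain. In such bulk libraries, fewer cells of a type and less RNA per cell cannot be told apart.

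Ythdf mRNA was present in every mutant input at a level below all wild-type inputs. It had 36.6, 37.7, 32.8 and 30.3 CPM in the mutant and 71.8, 64.6, 64.9, 57.8 and 61.2 CPM in the wild type. The 2 groups did not overlap, and the mutant mean was 53.6% of the wild-type mean. The log2 fold change was −0.90 ± 0.10 (SE; adjusted p = 6.38e-05 over all tested genes, edgeR's quasi-likelihood test). An exact two-sided permutation test over the 126 splits of the 9 inputs gave p = 0.0159, and without 1 library in turn p was 0.0286 or 0.0357. Because the groups did not overlap, each is the smallest p that the group sizes allow. These values therefore add nothing beyond the lack of overlap. Counts per gene do not show whether the remaining transcript is intact. In 1 fit of all 27 libraries the same difference had an adjusted p of 0.107.

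Of the 9 m6A writers and readers, vir and Mettl3 rose and Ythdf fell. That is 22.2% higher and 11.1% lower, against 10.6% and 11.1% over all tested genes. The scaffold gene vir had 24.9, 26.6, 25.6 and 27 CPM in the mutant and 20.7, 16.5, 16.2, 18.4 and 16.9 CPM in the wild type, without overlap (log2 fold change 0.56 ± 0.10, adjusted p = 0.00209). Mettl3, the methyltransferase itself, had 3.95, 4.99, 3.52 and 4.25 CPM in the mutant and 2.24, 2.14, 2.71, 3.55 and 1.51 CPM in the wild type. Wild-type replicate 5 stood above the lowest mutant library, and the call (0.77 ± 0.23, adjusted p = 0.0339) was lost without mutant replicate 1, 2 or 7 or wild-type replicate 1, 2 or 7. The other 6 did not pass. Their log2 fold changes were 0.21 ± 0.18 for Mettl14, −0.10 ± 0.11 for fl(2)d, 0.19 ± 0.09 for nito, 0.05 ± 0.10 for Flacc, 0.41 ± 0.18 for Hakai and 0.13 ± 0.09 for the nuclear reader Ythdc1. Fmr1 mRNA differed by −0.02 ± 0.12 (adjusted p = 0.928), at 72.6 ± 5.64 CPM in mutant and 73.7 ± 11.8 CPM in wild-type inputs (SD, n = 4 and 5).

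Across the transcriptome, 2264 of the 10435 tested genes (21.7%) passed an adjusted p of 0.05, and such genes are referred to as called. Of these, 1109 (10.6% of the tested genes) were higher and 1155 (11.1%) lower in the mutant. Most differences were small. The median size of a called log2 fold change was 0.58, and 341 higher and 180 lower genes changed by at least 1 on the log2 scale. Beyond 2 there were 112 higher and 56 lower genes. Mutant and wild-type values did not overlap for 1901 of the called genes (84%), against 2360 of all tested genes (22.6%). TMM factors were 1.02 to 1.10 in the mutant and 0.945 to 0.971 in the wild type, and with library size as the only scaling the median of all genes moved up by 0.15 (log2) and the split became 2180 higher and 593 lower. With all 27 libraries in 1 fit 382 genes were called higher and 270 lower, and with replicates 1, 5 and 7 alone 483 and 384.

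The genes with the largest changes were mostly ones with little or no signal in 1 of the 2 stocks. With at most 3 counts in every library of the other stock and a mean of at least 2 CPM, 13 genes were detected in the mutant alone and 3 in the wild type alone. The ceiling is in counts, so it stands for a higher CPM in a smaller library. Wild-type inputs held 5623123 to 13240187 gene counts and mutant inputs 9207492 to 15459370. The numbers for the 2 stocks are therefore not on an equal footing. sordd2 had 41.7, 30.1, 30.6 and 19.5 CPM in the mutant and 0, 0.0791, 0.0902, 0 and 0 CPM in the wild type. Its ratio of mutant to wild type was 707 (95% exact interval for counting error 195 to 5842, from 1794 against 2 counts in all). CG11893, of the ecdysteroid kinase-like family, had 14.8, 15.7, 12.8 and 29.5 CPM in the mutant and 0, 0.237, 0, 0.115 and 0 CPM in the wild type (log2 fold change 7.51 ± 0.51, adjusted p = 5.57e-06). In both genes every mutant library stood far above every wild-type library. CR43105, annotated as a pseudogene, had 2.72, 2.53, 2.72 and 3.07 CPM in the mutant and 0 counts in all 5 wild-type inputs. Against a floor of 3 counts over the wild-type group it was at least 41-fold higher. CG13050 reached its mean through mutant replicate 2 alone, with 0.0681, 34.3, 0.247 and 0 CPM in the mutant and 0.187, 0, 0, 0 and 0 CPM in the wild type, and did not pass the filter for testing.

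Other large increases were in lcs, Dnaaf3 (a factor for the assembly of ciliary dynein) and phr (a DNA photolyase). lcs had 81.5, 59.4, 78.1 and 132 CPM in the mutant and 0.374, 0.475, 0.451, 0.687 and 0.686 CPM in the wild type (log2 fold change 7.33 ± 0.30, adjusted p = 7.53e-08). Dnaaf3 had 9.40, 10.5, 8.70 and 11.7 CPM in the mutant and 0.374, 0.316, 0, 0.229 and 0.137 CPM in the wild type (5.58 ± 0.34, adjusted p = 6.34e-07). phr had 23.6, 26.2, 27.5 and 33.4 CPM in the mutant and 0.187, 1.19, 0.722, 0.916 and 0.824 CPM in the wild type (5.04 ± 0.22, adjusted p = 3.99e-08). Every wild-type library of these 3 genes was far below every mutant library. The X-linked noncoding gene lncRNA:CR40469 was abundant as well, at 2369, 2204, 1855 and 1208 CPM in the mutant and 18.3, 29.7, 57.9, 20.5 and 11.7 CPM in the wild type (6.08 ± 0.50, adjusted p = 0.000105). CG13073 differed by 5.53 ± 0.18, and 28.9% of its exon length lies over the antisense gene asRNA:CR43891, whose reads cannot be told apart from its own if strand was not used in counting.

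Large decreases occurred in genes of unlike function, a few of which follow. tobi, an alpha-glucosidase gene regulated by insulin signalling, had 0.613, 0.801, 0.679 and 0.989 CPM in the mutant and 18.5, 22.9, 49.8, 42 and 31.6 CPM in the wild type (log2 fold change −5.43 ± 0.37, adjusted p = 9.99e-06). NT1, a neurotrophin of the Spätzle family, had 1.77, 2.16, 1.17 and 1.58 CPM in the mutant and 14.8, 19.1, 15.1, 10.1 and 13 CPM in the wild type (−3.10 ± 0.22, adjusted p = 2.17e-06). The pyrokinin receptor gene PK2-R2 had 2.04, 2.10, 2.10 and 1.68 CPM in the mutant and 12, 10.5, 8.93, 7.21 and 5.90 CPM in the wild type (−2.15 ± 0.22, adjusted p = 3.72e-05), and the kinetochore gene Mis12 had 1.23, 1.36, 1.30 and 1.48 CPM in the mutant and 8.41, 6.09, 4.78, 9.50 and 10.4 CPM in the wild type (−2.53 ± 0.25, adjusted p = 3.35e-05). In all 4 the highest mutant library lay below the lowest wild-type library. The segmentation gene gt had 1 count in all in the mutant and 2.27 CPM on average in the wild type, a ratio of wild type to mutant of 124 (95% exact interval for counting error 21.8 to 4961).

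Eye pigment genes differed in opposite directions. The transporter gene w was detected in the mutant stock alone, and 6 of the other 19 tested genes of pigment synthesis and transport fell. Fly eyes hold red pteridine and brown ommochrome pigments, and the White protein pairs with Scarlet or Brown to carry their precursors into pigment granules. The wild-type stock is named for w1118, which is known as a null allele of w. w had 27.7, 22.2, 22.0 and 33.4 CPM in the mutant and 0.187, 0, 0.0902, 0 and 0 CPM in the wild type, a ratio of 576 (95% exact interval for counting error 159 to 4758, from 1461 against 2 counts in all). Its partner st fell, with 4.84, 4.25, 4.69 and 5.74 CPM in the mutant and 8.6, 6.96, 7.49, 9.85 and 8.38 CPM in the wild type (log2 fold change −0.76 ± 0.15, adjusted p = 0.00385).

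In the pteridine pathway 4 enzymes were lower. Pu, the GTP cyclohydrolase that opens the pathway, had 1739.8, 1723, 1722 and 1252 CPM in the mutant and 3748, 3158, 3022, 2945 and 2959 CPM in the wild type (−0.98 ± 0.13, adjusted p = 0.000445). pr, the next enzyme, a pyruvoyltetrahydropterin synthase, had 253, 237, 233 and 195 CPM in the mutant and 1236, 894, 829, 808 and 810.1 CPM in the wild type (−2.0 ± 0.15, adjusted p = 3.34e-06). se, the enzyme that makes the drosopterin precursor, had 1035, 889, 893 and 785 CPM in the mutant and 1135, 1491, 1493, 1458 and 1826 CPM in the wild type (−0.72 ± 0.14, adjusted p = 0.00380). Hn, the pterin-dependent phenylalanine hydroxylase, had 371, 318, 293 and 307 CPM in the mutant and 475, 611, 469, 535 and 616 CPM in the wild type (−0.75 ± 0.12, adjusted p = 0.00114). No mutant library reached the lowest wild-type library in any of the 4. On the ommochrome side, v, the tryptophan dioxygenase gene, had 0.272, 0.123, 0.370 and 0.396 CPM in the mutant and 3.55, 5.38, 6.13, 4.92 and 5.77 CPM in the wild type (−4.15 ± 0.32, adjusted p = 3.98e-06). Over the list 1 gene was higher and 6 lower of 20 tested (5.0% and 30.0% against 10.6% and 11.1% over all tested genes). The median log2 fold change was −0.16 against 0.02 over all genes. Summed CPM of the list were 3847 to 4817 in mutant and 7282 to 8063 in wild-type inputs. The purine enzyme gene ras (raspberry, an IMP dehydrogenase), which is outside the list, also fell, at 153 to 162 CPM in the mutant against 242 to 302 CPM in the wild type (−0.82 ± 0.09, adjusted p = 8.02e-05). Hn, se and st were named after their values were seen.

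**Figure D1:**
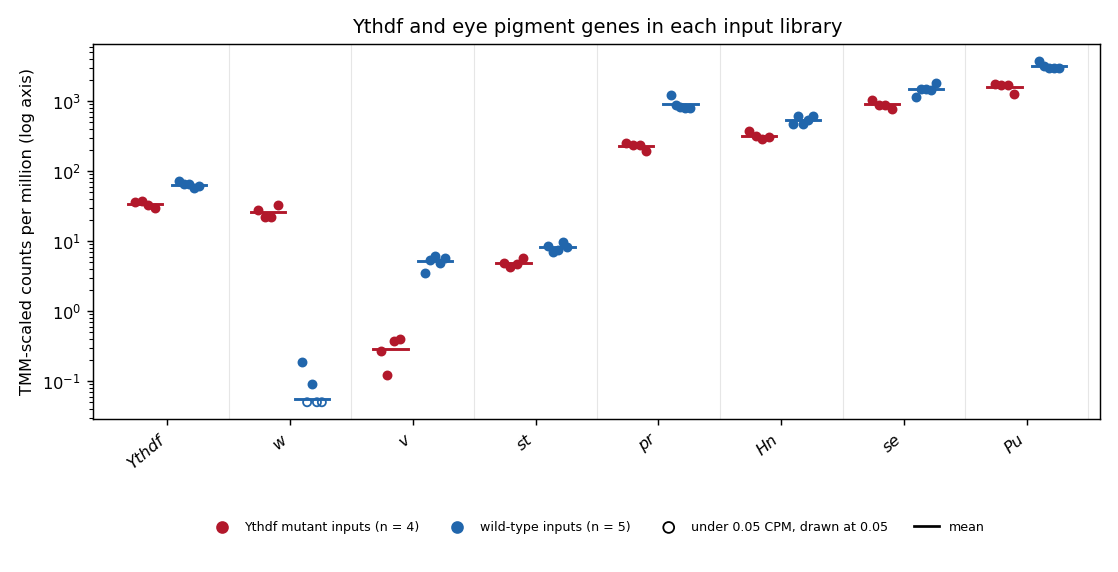
TMM-scaled CPM (log axis) of Ythdf and 7 eye pigment genes in the 4 Ythdf mutant inputs (red) and the 5 wild-type inputs (blue), with a line at each mean and open circles for values under 0.05 CPM. The points of the 2 genotypes do not overlap in any of the 8 genes. The gene w is the only one of them that is higher in the mutant.

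Channel, receptor, recognition, synaptic and neuron marker genes were called lower well above the background share, axon guidance genes less so, and neuropeptide precursors at the background share. Of 27 voltage-gated and potassium channel genes 16 fell and 0 rose, of 52 Dpr, DIP, Beat and Side cell recognition genes 25 fell and 0 rose, and of 41 neurotransmitter receptor genes 20 fell and 2 rose. Of 26 synaptic vesicle and active zone genes 11 fell and 1 rose, and of 16 neuron markers 8 fell and 0 rose. Of 45 axon guidance and growth genes 8 fell and 0 rose, and of 30 neuropeptide precursor genes 3 fell and 1 rose. The background is 11.1% called lower, against 59.3% of the channels, 48.1% of the recognition genes, 48.8% of the receptors, 42.3% of the synaptic genes, 50.0% of the neuron markers, 17.8% of the guidance genes and 10% of the peptides. Median log2 fold changes were −0.49, −0.34, −0.38, −0.34, −0.44, −0.22 and −0.14 in the same order. They stayed negative with RLE and upper-quartile factors. With library size as the only scaling they were −0.35, −0.20, −0.23, −0.19, −0.29, −0.06 and 0.01, against 0.17 over all genes. The peptide median was −0.03 without mutant replicate 2 and −0.04 without wild-type replicate 7.

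Calcium and potassium channels were among the clearest channel calls. The T-type calcium channel gene Ca-alpha1T had 412, 469.7, 498 and 395 CPM in the mutant and 802, 717, 646, 661 and 679 CPM in the wild type (log2 fold change −0.66 ± 0.11, adjusted p = 0.00134). eag, a potassium channel gene, had 75.9, 100.5, 93.1 and 82.5 CPM in the mutant and 175, 139, 103, 161 and 163 CPM in the wild type (−0.75 ± 0.15, adjusted p = 0.00395). Hk, the beta subunit of Shaker channels, had 275, 319, 314 and 317 CPM in the mutant and 543, 425, 371, 536 and 605 CPM in the wild type (−0.69 ± 0.14, adjusted p = 0.00445). In each of the 3 all mutant libraries lay below all wild-type libraries, and replicate 3 was the lowest wild-type library of eag and Hk. stj, a calcium channel subunit gene, fell too (−0.51 ± 0.11, adjusted p = 0.00618). Leaving out 1 library gave 12 to 19 channels called lower.

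The receptor with the largest fall was mAChR-A, a muscarinic acetylcholine receptor, with 32.3, 32.5, 34.0 and 31.6 CPM in the mutant and 93.4, 86.5, 80.1, 65.3 and 78 CPM in the wild type (−1.31 ± 0.10, adjusted p = 5.99e-06). Its mutant libraries were nearly level with each other and far below the lowest wild-type value. The NMDA receptor subunit gene Nmdar2 (−0.66 ± 0.10, adjusted p = 0.000861) and DopEcR, a receptor for dopamine and ecdysone (−0.69 ± 0.11, adjusted p = 0.00105), fell as well, without overlap. The 2 receptor genes that rose were GluRIIC and GluRIIE, subunits of the glutamate receptor of the larval neuromuscular junction. GluRIIC had 10.1, 10.2, 11.4 and 10.2 CPM in the mutant and 6.35, 6.49, 6.40, 5.73 and 7.0 CPM in the wild type (0.71 ± 0.11, adjusted p = 0.000962), and GluRIIE, named after its values were seen, had 13.7 to 19.4 CPM in the mutant against 9.28 to 13.5 CPM in the wild type (0.60 ± 0.14, adjusted p = 0.00881).

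Of the surface receptors that pair neurons with their partners, the immunoglobulin gene DIP-epsilon changed most. It had 45.8, 44.6, 44.4 and 44.9 CPM in the mutant and 110.5, 108, 92.2, 88.6 and 87.6 CPM in the wild type (−1.12 ± 0.09, adjusted p = 9.58e-06), with almost no spread among the mutant libraries. side-V (−0.56 ± 0.09, adjusted p = 0.00136), dpr10 (−0.67 ± 0.12, adjusted p = 0.00197) and beat-VI (−0.51 ± 0.10, adjusted p = 0.00480) fell without overlap, and 50 of the 52 tested genes of these families had a negative log2 fold change. Among genes of axon guidance, a process named in the title of the series, the attractant gene NetB had 143, 163, 147 and 116 CPM in the mutant and 202, 226, 195, 195 and 239 CPM in the wild type (−0.57 ± 0.11, adjusted p = 0.00375). The repellent gene sli (−0.39 ± 0.10, adjusted p = 0.0151) and its receptor gene robo1 (−0.37 ± 0.09, adjusted p = 0.0110) fell by less. Dscam2 (−0.46 ± 0.12, adjusted p = 0.0186) was called unless mutant replicate 7 was left out.

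At the synapse, the calcium sensor gene Syt1 had 964, 1029.7, 976 and 933 CPM in the mutant and 1693, 1348, 1154, 1442 and 1845 CPM in the wild type (−0.62 ± 0.14, adjusted p = 0.00756). Rbp, which encodes the RIM-binding protein of the active zone, had 301, 265, 278 and 298 CPM in the mutant and 547, 385, 333, 435 and 530.0 CPM in the wild type (−0.64 ± 0.14, adjusted p = 0.00761). EndoA (−0.42 ± 0.10, adjusted p = 0.0106) and Rab3 (−0.52 ± 0.12, adjusted p = 0.0109) fell without overlap. The 1 synaptic gene called higher was Syt7 (0.32 ± 0.11, adjusted p = 0.0499), named after its values were seen. Its groups overlapped and the call was lost without any 1 library other than wild-type replicate 7, and in the fit with replicate number as a block (adjusted p = 0.116). Of the neuron markers, ChAT, the enzyme that makes acetylcholine, had 153, 134, 142 and 118 CPM in the mutant and 191, 206, 205, 162 and 192 CPM in the wild type (−0.49 ± 0.10, adjusted p = 0.00595), and Vmat, the vesicular monoamine transporter gene, differed by −0.42 ± 0.10, adjusted p = 0.0123. ChAT shares exons with VAChT, so reads of the shared part may have been split between these 2 genes or left out of both. Of the peptide genes, CCHa2 rose (0.71 ± 0.11, adjusted p = 0.00117) and Akh, the adipokinetic hormone gene, fell (−0.80 ± 0.16, adjusted p = 0.00461).

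The neuronal lists also varied between libraries of 1 genotype. As the median over genes of log2 CPM minus the mean over the 9 inputs, the channels stood at −0.30, −0.09, −0.19 and −0.44 in the mutant inputs and 0.41, 0.22, 0.07, 0.21 and 0.23 in the wild-type inputs. Replicate 7 of the mutant was lowest and replicate 1 of the wild type highest, and the groups did not overlap. For the neuron markers the values were −0.21, −0.12, −0.24 and −0.30 in the mutant and 0.44, 0.10, −0.20, 0.19 and 0.34 in the wild type, and wild-type replicate 3 lay among the mutant libraries. Without wild-type replicate 1 the genes called lower numbered 13, 18, 18, 6, 5 and 5 for channels, recognition genes, receptors, synaptic genes, neuron markers and guidance genes. With replicate number as a block they numbered 14, 26, 20, 6, 6 and 11 in that order, and in 1 fit of all 27 libraries 1, 2, 3, 0, 0 and 0. Other libraries moved some counts of genes called lower by over 1.5 times. The recognition genes came to 15 without wild-type replicate 7, 14 without mutant replicate 3 or wild-type replicate 2 and 12 without mutant replicate 7, and the neuron markers to 5 without mutant replicate 1 or 7 or wild-type replicate 1 or 7 and 4 without mutant replicate 3. The synaptic genes came to 7 without mutant replicate 2 or wild-type replicate 5 or 7, 6 without wild-type replicate 1 and 4 without mutant replicate 3 or 7, the guidance genes to 5 without mutant replicate 3 or wild-type replicate 1, 4 without mutant replicate 1 or wild-type replicate 2 and 3 without mutant replicate 7 and the peptide genes to 1 without mutant replicate 1, 2 or 3 or wild-type replicate 2 or 7. Peptide genes called higher came to 2 with replicate number as a block. Genes of most of these lists are long, but not of all. The median annotated exon length was 7144 bases for neuron markers, 6273 for channels, 6075 for guidance genes, 5405 for receptors and 5337 for synaptic genes. It was 3515 for the recognition genes and 1105 for the peptide genes. Protein-coding genes were cut into 4 bins of equal size by exon length. The bin of the longest (at least 3602 bases) had 19.3% called lower, 7.52% called higher and a median of −0.12. That of the shortest had 8.26% lower, 10.3% higher and a median of 0.07. The part of gene length, or of an uneven mix of tissues, in the neuronal differences was not tested.

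**Figure D2:**
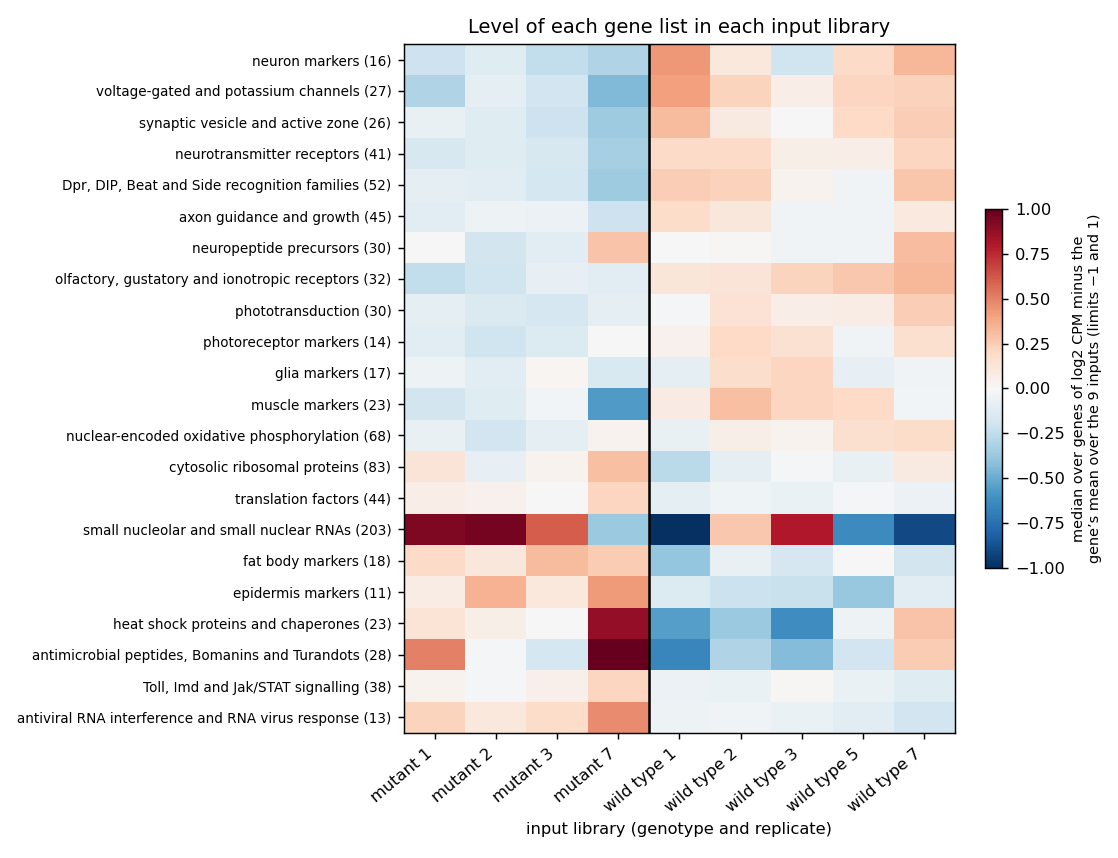
Level of 22 gene lists in each of the 9 inputs, with mutant libraries left of the line and wild-type libraries right of it. Colour is the median over a list's tested genes (their number in brackets) of log2 CPM minus each gene's mean over the 9 inputs, and values beyond −1 or 1 take the end colours. Channels, receptors, recognition genes, synaptic genes and neuron markers are low in the mutant columns and lowest in mutant replicate 7, while heat shock and immune lists are highest in mutant replicate 7 and the small nucleolar and nuclear RNAs vary within both genotypes.

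Sensory genes gave a mixed picture with more decreases. Of 30 phototransduction genes 2 rose and 8 fell (6.67% and 26.7% against 10.6% and 11.1%, median −0.18). Of 14 photoreceptor markers 1 rose and 3 fell (7.14% and 21.4%). ninaD, a scavenger receptor for carotenoid uptake, had 53.7, 53.3, 63 and 61.7 CPM in the mutant and 18.7, 32.0, 30.5, 18 and 22.2 CPM in the wild type (1.24 ± 0.17, adjusted p = 0.000442). ninaB, the enzyme that cleaves carotenoids to the visual chromophore, had 50.3, 45.8, 45.9 and 49.9 CPM in the mutant and 69.1, 72.2, 70, 76.8 and 75.9 CPM in the wild type (−0.60 ± 0.08, adjusted p = 0.000254). The 2 genes act in the same pathway and moved in opposite directions, each without overlap. The blue opsin gene Rh5 rose (0.53 ± 0.13, adjusted p = 0.0144). rdgA, the diacylglycerol kinase of photoreceptors (−0.57 ± 0.13, adjusted p = 0.00905), Ggamma30A (−0.64 ± 0.16, adjusted p = 0.0140) and the lens protein gene Crys (−0.63 ± 0.15, adjusted p = 0.0123) fell. Phototransduction genes called lower came to 5 without mutant replicate 1 or wild-type replicate 2 and 4 without mutant replicate 3, and photoreceptor markers to 1 without mutant replicate 1 or 2 and 0 without mutant replicate 3 or wild-type replicate 2 and to 6 with replicate number as a block.

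Of 28 tested odorant-binding protein genes 7 rose and 4 fell (25% and 14.3% against 10.6% and 11.1%). Obp56a had 74.6, 60, 55.4 and 49.5 CPM in the mutant and 5.23, 6.17, 4.06, 4.24 and 6.86 CPM in the wild type (3.5 ± 0.17, adjusted p = 8.43e-08). Obp99d had 89.1, 94.5, 121 and 110.2 CPM in the mutant and 15.3, 17.5, 18.8, 19.9 and 21.4 CPM in the wild type (2.48 ± 0.12, adjusted p = 8.34e-08). Both were several-fold higher in every mutant library. Of 187 olfactory, gustatory and ionotropic receptor genes only 32 had enough counts to test, 1 rose and 9 fell (28.1% lower), with a median of −0.39. The sugar receptor gene Gr64a had 1.23, 1.36, 1.91 and 1.68 CPM in the mutant and 0, 0.158, 0.0902, 0.115 and 0 CPM in the wild type (3.98 ± 0.49, adjusted p = 0.000173), and the odorant receptor gene Or63a had 3.20, 2.90, 3.27 and 3.76 CPM in the mutant and 5.98, 7.52, 6.95, 6.07 and 9.34 CPM in the wild type (−1.13 ± 0.17, adjusted p = 0.000776). Levels this low rest on few counts. Receptor genes called higher came to 2 without mutant replicate 1 or wild-type replicate 7 and to 2 with replicate number as a block. Those called lower came to 4 without wild-type replicate 2 and 3 without wild-type replicate 3, and odorant-binding protein genes called lower to 2 without mutant replicate 2 or 3 or wild-type replicate 7. The circadian clock list had 0 higher and 1 lower of 17 (0% and 5.88% against 10.6% and 11.1%). The 1 lower gene was the kinase gene dco (−0.41 ± 0.11, adjusted p = 0.0164). Clock genes called lower came to 3 without wild-type replicate 7 and 2 without wild-type replicate 3 and to 2 with replicate number as a block.

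Detoxification enzymes were called in both directions, with individual genes of a cluster turned one way or the other. Cytochrome P450 enzymes oxidise insecticides, plant toxins and hormones, and glutathione transferases and UDP-glycosyltransferases couple the products to carriers for export. Of 72 P450 genes 16 rose and 10 fell, of 31 glutathione transferase genes 3 rose and 9 fell, and of 25 UDP-glycosyltransferase genes 8 rose and 7 fell. Against 10.6% higher and 11.1% lower in the background these are 22.2% and 13.9%, 9.68% and 29.0%, and 32.0% and 28.0%. P450 genes called lower came to 6 without mutant replicate 1 or 2, and UDP-glycosyltransferase genes called higher to 5 without mutant replicate 7. The medians were close to 0, at 0.09, −0.02 and −0.06.

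Cyp6a17, known for its part in temperature preference and for being deleted in some wild strains, had 34.5, 32.5, 29.1 and 27 CPM in the mutant and 0.748, 0.237, 0, 0 and 0 CPM in the wild type (log2 fold change 7.53 ± 0.41, adjusted p = 1.16e-06). The neighbouring copy Cyp6a23 had 9.47, 7.03, 9.26 and 7.91 CPM in the mutant and 25, 28.6, 32.5, 25.8 and 28.8 CPM in the wild type (−1.74 ± 0.12, adjusted p = 2.14e-06). These 2 genes are close in sequence, so reads may have been assigned between them or left out as not unique, and their sum was not tested. Cyp12d1-d had 2.38, 1.79, 1.91 and 2.87 CPM in the mutant and 0 counts in all wild-type inputs, at least 32.6-fold higher against a floor of 3 counts over the group, and its near-identical copy Cyp12d1-p differed by 2.41 ± 0.39, adjusted p = 0.00125. Reads common to these copies may be shared or left out as not unique, so the 0 counts alone do not show a lack of expression. Cyp12a4 had 17.1, 18.2, 16.9 and 19.7 CPM in the mutant and 41.5, 42.1, 36.4, 45.7 and 40.5 CPM in the wild type (−1.20 ± 0.10, adjusted p = 7.00e-06). Cyp4p1 had 8.51, 8.57, 5.74 and 12.3 CPM in the mutant and 29.5, 35, 34.1, 30.2 and 33.5 CPM in the wild type (−1.90 ± 0.18, adjusted p = 1.74e-05). Cyp4e3 rose in every mutant library but unevenly, with 75.3, 24.1, 37 and 187 CPM in the mutant and 5.05, 6.33, 6.58, 9.96 and 15 CPM in the wild type (3.23 ± 0.67, adjusted p = 0.0134).

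Of the conjugating enzymes, GstE4 had 11.3, 9.37, 10.2 and 13.5 CPM in the mutant and 36.4, 37.3, 49.5, 50.4 and 52.4 CPM in the wild type (−2.03 ± 0.15, adjusted p = 3.34e-06), and GstE5 had 0.681, 0.986, 0.556 and 1.19 CPM in the mutant and 5.05, 9.10, 6.86, 8.70 and 10 CPM in the wild type (−3.25 ± 0.27, adjusted p = 8.74e-06). Both belong to the epsilon class, and neither had a mutant library near the wild-type range. Ugt35B1 had 1.70, 1.29, 1.67 and 1.29 CPM in the mutant and 22.8, 28.4, 28.4, 24.4 and 29.4 CPM in the wild type (−4.15 ± 0.14, adjusted p = 6.00e-09). Ugt37A2 had 0, 0.185, 0.123 and 0 CPM in the mutant and 2.06, 4.75, 10, 9.28 and 6.32 CPM in the wild type. Ugt36E1 went the other way, with 34.0, 38.4, 36.7 and 36 CPM in the mutant and 14.8, 15.6, 14.8, 18.1 and 16.5 CPM in the wild type (1.19 ± 0.09, adjusted p = 5.57e-06). Glutathione transferase genes called higher came to 1 without mutant replicate 1 or 2 or wild-type replicate 2, 3, 5 or 7 and 0 without mutant replicate 7 or wild-type replicate 1, and those called lower to 5 without wild-type replicate 7 and 4 without mutant replicate 2 or 3.

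Immune and antiviral genes were higher in the mutant where they were called, with few exceptions. Flies answer microbes through the Toll and Imd pathways, which release antimicrobial peptides, and viruses through RNA interference, Sting signalling and the Jak/STAT cytokines of the unpaired family. Of 13 antiviral genes 4 rose and 0 fell, of 38 Toll, Imd and Jak/STAT signalling genes 7 rose and 0 fell, and of 28 antimicrobial peptide, Bomanin and Turandot genes 5 rose and 2 fell (30.8%, 18.4% and 17.9% higher against 10.6%). pst, a gene known for resistance to picorna-like viruses, had 140.4, 147, 146 and 158 CPM in the mutant and 36.1, 43.0, 54.1, 51.9 and 48.5 CPM in the wild type (1.66 ± 0.11, adjusted p = 1.36e-06). Sting, the receptor for cyclic dinucleotides, had 20.8, 13.4, 13.3 and 23.7 CPM in the mutant and 5.98, 5.93, 7.58, 7.67 and 7.14 CPM in the wild type (1.36 ± 0.19, adjusted p = 0.000417). Srg3, named as a gene regulated by Sting, had 12.3, 3.39, 3.33 and 14.2 CPM in the mutant and 0, 0, 0.812, 0.344 and 0.824 CPM in the wild type (4.32 ± 0.81, adjusted p = 0.00679). No wild-type library reached a mutant one in these 3 genes, and mutant replicates 1 and 7 were the highest for Srg3. vir-1 (0.56 ± 0.15, adjusted p = 0.0167) was called unless mutant replicate 7 was left out.

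Of the cytokines, upd2 had 4.97, 4.93, 5.18 and 11.4 CPM in the mutant and 1.5, 1.66, 0.18, 0.802 and 2.33 CPM in the wild type (2.38 ± 0.50, adjusted p = 0.00771), and upd3, named after its values were seen, had 4.02, 2.71, 3.27 and 7.02 CPM in the mutant and 2.62, 0.475, 0, 0.229 and 0.686 CPM in the wild type (2.65 ± 0.73, adjusted p = 0.030). The call of upd3 was lost without mutant replicate 1, 3 or 7 or wild-type replicate 2, 5 or 7. Socs36E, a target of the pathway, had 86.9, 76.2, 95.1 and 110.5 CPM in the mutant and 62.4, 67.2, 70.1, 63.9 and 72.8 CPM in the wild type (0.45 ± 0.11, adjusted p = 0.0106), without overlap. The Spätzle-family gene spz3 rose (0.83 ± 0.12, adjusted p = 0.000474), and so did the recognition gene PGRP-SB1 (1.98 ± 0.55, adjusted p = 0.0270), which lost the call without mutant replicate 7 or wild-type replicate 2 or 5. Genes of this list called higher came to 4 without mutant replicate 3 or 7 or wild-type replicate 7 and 3 without wild-type replicate 5, and those called lower to 1 without wild-type replicate 7.

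The secreted peptides that rose were highest in mutant replicate 7. BomS1, a short Bomanin downstream of Toll, had 27.9, 21.5, 16.2 and 99.4 CPM in the mutant and 3.18, 5.70, 6.13, 6.18 and 9.47 CPM in the wild type (2.72 ± 0.61, adjusted p = 0.0178), and the Daisho gene Dso1 had 70.1, 60.3, 44.9 and 163 CPM in the mutant and 23.4, 34.0, 23, 19.0 and 25.3 CPM in the wild type (1.75 ± 0.38, adjusted p = 0.0146). For both genes replicate 7 was well above the next mutant library, and the other 3 mutant libraries still lay above the wild type. BomT3 rose with less spread (1.09 ± 0.19, adjusted p = 0.00174). The attacin gene AttC, named after its values were seen, went the other way and varied widely, with 0.136, 0.185, 0.123 and 1.38 CPM in the mutant and 1.31, 5.78, 21.2, 1.49 and 5.22 CPM in the wild type (−4.18 ± 1.16, adjusted p = 0.0372), and lost the call without mutant replicate 1, 2 or 3 or wild-type replicate 2 or 7. The defensin-like gene Drsl4 also fell (−1.62 ± 0.36, adjusted p = 0.00743). Genes of this list called lower came to 1 without mutant replicate 1, 2 or 3 or wild-type replicate 2 or 7. Genes of this list called higher came to 3 without wild-type replicate 1, 2 or 3, to 4 without mutant replicate 7 and to 10 with replicate number as a block. Summed CPM were 261 to 1092 in mutant and 236 to 323 in wild-type inputs, with the highest value in mutant replicate 7.

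Of 23 heat shock and chaperone genes 4 rose and 2 fell (17.4% and 8.70% against 10.6% and 11.1%). Their median was 0.62, and 0.18 without mutant replicate 7. The endoplasmic reticulum chaperone gene Hsc70-3 had 340.4, 369, 347 and 517 CPM in the mutant and 206, 287, 260.0, 211 and 292 CPM in the wild type (0.65 ± 0.15, adjusted p = 0.00984). Hsc70-2 had 13.6, 13.3, 13 and 17.5 CPM in the mutant and 3.74, 5.22, 5.77, 6.30 and 5.90 CPM in the wild type (1.39 ± 0.15, adjusted p = 6.53e-05). The small heat shock protein gene Hsp67Bc fell, with 33, 31.2, 27.7 and 40.8 CPM in the mutant and 57.2, 64.8, 57.7, 65.6 and 89.2 CPM in the wild type (−1.01 ± 0.15, adjusted p = 0.000669). The 2 rising genes were highest in mutant replicate 7. With replicate number as a block 14 rose and 2 fell. Those called lower came to 1 without mutant replicate 1, 2 or 7 or wild-type replicate 2 or 5.

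**Figure D3:**
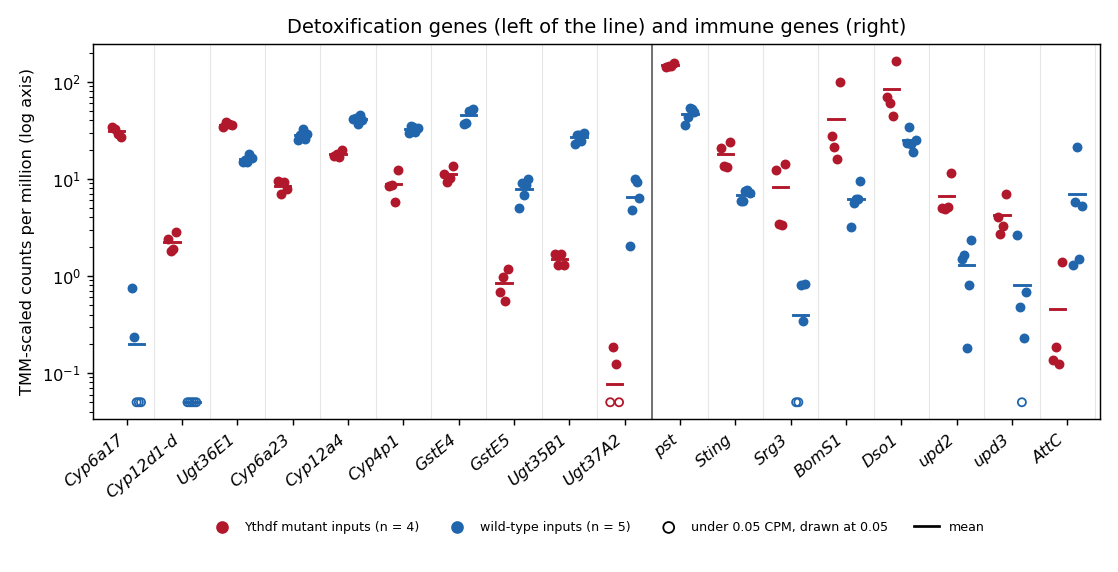
TMM-scaled CPM (log axis) of 10 detoxification genes and 8 immune genes in the 4 Ythdf mutant inputs (red) and the 5 wild-type inputs (blue), with a line at each mean and open circles for values under 0.05 CPM. Cyp6a17, Cyp12d1-d, Ugt36E1 and the immune genes from pst to upd3 are higher in every mutant library than in any wild-type library, the other detoxification genes are lower, and AttC overlaps.

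Markers of other tissues of the head moved as well. Of 18 fat body markers 7 rose and 1 fell (median 0.45), of 11 epidermis markers 6 rose and 0 fell (0.69), and of 23 muscle markers 0 rose and 6 fell (−0.36). These are 38.9% and 54.5% higher against 10.6%, and 26.1% lower against 11.1%. The epidermis median was 0.42 without mutant replicate 2. Muscle markers called lower came to 3 without mutant replicate 7 or wild-type replicate 2 or 5, and fat body markers called higher to 4 without wild-type replicate 7. The fat body markers called lower came to 2 without wild-type replicate 2 and 0 without mutant replicate 1, 2 or 7 and to 0 with replicate number as a block. Summed levels did not overlap for fat body, at 1612 to 1860.5 CPM in mutant and 1131 to 1360.3 CPM in wild-type inputs, or for epidermis, at 1072 to 1596 and 632 to 852 CPM. Those of muscle did, at 43589 to 62572 and 60943 to 77933 CPM. Lsp2, a storage protein of the fat body, had 89.1, 72.4, 110.2 and 132 CPM in the mutant and 17.6, 26.3, 20.9, 34.2 and 24.0 CPM in the wild type (2.03 ± 0.21, adjusted p = 0.000122). apolpp, the lipid carrier of the hemolymph, had 897, 890.2, 922 and 983 CPM in the mutant and 595, 757, 514, 481 and 637 CPM in the wild type (0.63 ± 0.13, adjusted p = 0.00520), and AkhR, the adipokinetic hormone receptor gene, rose too (0.72 ± 0.13, adjusted p = 0.00228). The yolk protein gene Yp1, known for expression in females, had 5.31, 10.9, 5.80 and 28.8 CPM in the mutant and 2.06, 1.74, 1.53, 2.75 and 2.2 CPM in the wild type (2.62 ± 0.57, adjusted p = 0.0129), and 54% of its exon length lies over an antisense gene. Yp1, Yp2 and Yp3 are 3 of the 7 fat body markers called higher, and they count again in the list of sex determination genes. Yp2 and Yp3 lost the call in some fits with 1 library left out. Sex was not given, and the sex determination gene Sxl fell (−0.49 ± 0.11, adjusted p = 0.00928).

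Of the epidermis markers, the chitin deacetylase genes serp and verm rose. serp had 358, 381, 377 and 549.9 CPM in the mutant and 219, 273, 294, 226 and 282 CPM in the wild type (0.69 ± 0.14, adjusted p = 0.00541), and verm had 507, 479, 519 and 776 CPM in the mutant and 244, 346, 369.9, 332 and 383 CPM in the wild type (0.77 ± 0.16, adjusted p = 0.00623). dyl, a zona pellucida protein of the apical surface, had 32.8, 29.6, 43.0 and 65 CPM in the mutant and 9.34, 13.4, 7.76, 7.21 and 19.6 CPM in the wild type (1.89 ± 0.34, adjusted p = 0.00550). All 3 were without overlap, and mutant replicate 7 was highest. The muscle genes Zasp52 (−0.62 ± 0.15, adjusted p = 0.0113) and Act87E (−0.59 ± 0.15, adjusted p = 0.0147) fell. Cuticle protein genes split, with 13 higher and 10 lower of 67 (19.4% and 14.9%). Cpr51A had 44.5, 54.2, 52.5 and 50.2 CPM in the mutant and 9.34, 10.8, 10.2, 10.5 and 14.6 CPM in the wild type (2.18 ± 0.13, adjusted p = 3.67e-07), while Cpr72Ec had 278, 327, 267 and 222 CPM in the mutant and 602, 768, 766, 623 and 786 CPM in the wild type (−1.37 ± 0.13, adjusted p = 3.09e-05). Of 17 cuticle tanning genes 1 rose and 3 fell (5.88% and 17.6% against 10.6% and 11.1%). Among those that fell were Ddc, the dopa decarboxylase gene (−0.47 ± 0.09, adjusted p = 0.00331), and y (−1.18 ± 0.24, adjusted p = 0.00463). The tanning genes called higher came to 2 without wild-type replicate 3.

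Gut markers had 4 higher and 2 lower of 13 tested (30.8% and 15.4% against 10.6% and 11.1%). They were led by the amylase gene Amy-p (1.38 ± 0.15, adjusted p = 5.82e-05). Reads common to it and its copy Amy-d may be shared or left out as not unique. The gut markers called lower came to 1 without mutant replicate 1 or 2. Hemocyte markers had 1 higher and 0 lower of 13 (7.69% and 0%), the riser being the prophenoloxidase gene PPO2 (1.0 ± 0.24, adjusted p = 0.0123). Those called higher came to 2 without mutant replicate 7, and those called lower to 2 without wild-type replicate 7 and 1 without mutant replicate 3 and to 1 with replicate number as a block. Glia markers had 0 higher and 1 lower of 17 (0% and 5.88%), the astrocyte gene alrm (−0.65 ± 0.14, adjusted p = 0.00788). Those called higher came to 1 without wild-type replicate 3, and those called lower to 2 without wild-type replicate 1. Trachea markers had no call among 6, where trh had the smallest p (−0.28 ± 0.10, adjusted p = 0.0627), and 1 gene was called lower without wild-type replicate 7. Only 4 of 37 testis and accessory gland markers could be tested, and 1 was called higher, the gene twe (0.98 ± 0.27, adjusted p = 0.0223), a call lost without mutant replicate 1, 2 or 7. The testis markers called higher came to 2 without wild-type replicate 5 and 0 without mutant replicate 1, 2 or 7 and to 3 with replicate number as a block, and those called lower to 1 without wild-type replicate 3. The part of such markers in the differences of other lists was not tested.

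Translation factors were called higher more than lower, and few ribosomal protein genes were called. Of 44 translation factors 11 rose and 2 fell (25% and 4.55% against 10.6% and 11.1%). Their median was 0.12, and 0.05 without mutant replicate 7. eIF6, which keeps ribosomal subunits apart, had 25.4, 21.2, 24.4 and 34.0 CPM in the mutant and 12, 9.73, 12.3, 12.8 and 12.1 CPM in the wild type (1.16 ± 0.14, adjusted p = 0.000161). The eIF3 subunit genes eIF3k (0.61 ± 0.10, adjusted p = 0.00161) and eIF3a (0.45 ± 0.09, adjusted p = 0.00425) rose without overlap. eIF4E1, the main cap-binding factor, fell (−0.34 ± 0.10, adjusted p = 0.0243), a call lost without mutant replicate 2, 3 or 7. Factors called lower came to 1 without mutant replicate 1 or wild-type replicate 1, 2, 5 or 7 and 0 without mutant replicate 2, 3 or 7 and to 1 with replicate number as a block. Of 83 cytosolic ribosomal protein genes 4 rose (4.82%) and 0 fell. Of these genes 74 had a positive log2 fold change, with a median of 0.18, or 0.11 without mutant replicate 7 and 0.11 without wild-type replicate 1. Their summed level was 29786 to 38007 CPM in mutant and 26777 to 33132 CPM in wild-type inputs, which overlap. Genes called higher came to 2 without mutant replicate 1, 3 or 7 or wild-type replicate 1, 2 or 5, and with library size as the only scaling to 29.

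Nuclear-encoded genes of oxidative phosphorylation had 0 higher and 7 lower of 68, 10.3% lower against 11.1% over all genes, with a median of −0.18. The complex I subunit gene ND-15 had 52.8, 45.7, 53.8 and 50.1 CPM in the mutant and 83.4, 82.7, 83.2, 94.4 and 85.5 CPM in the wild type (−0.76 ± 0.08, adjusted p = 7.28e-05), and the cytochrome c gene Cyt-c-p had 599, 555, 641 and 712 CPM in the mutant and 1002, 861, 1006, 1037 and 996 CPM in the wild type (−0.65 ± 0.11, adjusted p = 0.00137). In both, every mutant library was below every wild-type library. Transcripts of the mitochondrial genome had 0 higher and 2 lower of 24 (0% and 8.33% against 10.6% and 11.1%). Those called higher came to 1 without mutant replicate 7, and those called lower to 1 without mutant replicate 2, 3 or 7 or wild-type replicate 3, 5 or 7 and to 1 with replicate number as a block. Mitochondrial ribosomal proteins had 1 higher and 3 lower of 71 (1.41% and 4.23%). Oxidative phosphorylation genes called lower came to 11 without mutant replicate 7, 4 without mutant replicate 1 or wild-type replicate 1 and 2 without mutant replicate 2 or 3 or wild-type replicate 5. The mitochondrial ribosomal protein genes called higher came to 2 without wild-type replicate 2 or 7. Those called lower came to 6 without wild-type replicate 3, 1 without mutant replicate 1 or 7 or wild-type replicate 2 or 5 and 0 without mutant replicate 2 or 3, and to 0 with replicate number as a block.

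Small nucleolar and small nuclear RNAs had a median log2 fold change of 0.79 over 203 tested genes, with 187 positive and 16 negative. Only 8 were called higher and 2 lower (3.94% and 0.985%, below the 10.6% and 11.1% over all tested genes). The libraries of 1 genotype differed by as much as the genotypes did. As the median of log2 CPM minus the mean over inputs, the list stood at 0.93, 0.95, 0.60 and −0.37 in the mutant and −1.46, 0.27, 0.80, −0.64 and −0.90 in the wild type. Mutant replicate 7 lay within the wild-type range. Calls numbered 32 higher and 3 lower with the replicate set (2 and 3 against 1, 5 and 7) as a covariate, 16 higher and 2 lower with replicate number as a block. Leaving out 1 library, those called higher came to 29 without wild-type replicate 3, 13 without mutant replicate 7, 5 without mutant replicate 2 or wild-type replicate 5 and 4 without mutant replicate 1 or wild-type replicate 2. snoRNA:Psi18S-1377b was nevertheless nearly confined to the wild type, with 0, 0.616, 0.370 and 0 CPM in the mutant and 9.34, 20.3, 22.9, 10.3 and 7.55 CPM in the wild type (−5.65 ± 0.69, adjusted p = 0.000893). Reads of such genes can also come from the introns or exons of their hosts.

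Most of the remaining lists were called at shares below the 10.6% higher and 11.1% lower over all tested genes. Neprilysin genes lay above both shares, with 20% called higher. Dosage compensation and sex determination genes had 17.6% called higher and 5.88% called lower. Ecdysone response and hormone receptor genes had 2 higher and 2 lower of 27, with the pupal response gene ImpE1 (0.82 ± 0.18, adjusted p = 0.00628) higher, and those called lower came to 4 without wild-type replicate 3 and 1 without mutant replicate 1, 3 or 7. Lipid and sterol metabolism had 3 higher and 3 lower of 29. The higher ones came to 1 without wild-type replicate 2, 3 or 5, and the lower ones to 1 without mutant replicate 2, 3 or 7 or wild-type replicate 2 or 3 and to 1 with replicate number as a block. Glycolysis and trehalose metabolism had 2 higher and 0 lower of 24, among them the hexokinase gene Hex-C, with 20.2, 21.3, 20.2 and 24.5 CPM in the mutant and 7.29, 6.41, 9.74, 9.62 and 8.24 CPM in the wild type (1.38 ± 0.13, adjusted p = 3.15e-05). In this list those called higher came to 1 without wild-type replicate 2 and to 4 with replicate number as a block, and those called lower to 1 without wild-type replicate 1 or 7. Cell cycle genes had 1 higher and 2 lower of 20, the riser being RnrL, the large subunit of ribonucleotide reductase (1.06 ± 0.17, adjusted p = 0.00126). Cell cycle genes called higher came to 3 without wild-type replicate 5 and to 4 with replicate number as a block. Proteasome subunits had 1 higher and 0 lower of 32, and actin and microtubule cytoskeleton genes 3 higher and 1 lower of 39. Proteasome genes called higher came to 2 without mutant replicate 2 or wild-type replicate 5 and to 2 with replicate number as a block. Cytoskeleton genes called lower came to 2 without wild-type replicate 7 and 0 without mutant replicate 3 or 7 or wild-type replicate 2 and to 4 with replicate number as a block. Neprilysin peptidase genes had 5 higher and 3 lower of 25, led by Nepl10 (1.86 ± 0.18, adjusted p = 2.55e-05), and 8 higher without wild-type replicate 3. The dosage compensation and sex determination genes had 3 higher, all 3 yolk protein genes, and 1 lower (Sxl) of 17, and the higher ones came to 1 without wild-type replicate 2, 3 or 7 and the lower ones to 2 without wild-type replicate 3. Only 1 of 119 histone genes could be tested and it was not called.

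Genes with a mean of at least 100 CPM rest on many reads, and the 15 of them with the smallest p were lower in the mutant except lncRNA:CR40469. After pr and Pu they include sn, the actin-bundling protein fascin, with 61.4, 57.4, 63.1 and 63.2 CPM in the mutant and 148, 114, 144, 134 and 128 CPM in the wild type (−1.12 ± 0.09, adjusted p = 8.74e-06). TpnC47D, a troponin C gene of muscle, had 90.7, 84.9, 90.0 and 68.2 CPM in the mutant and 224, 229, 174, 206 and 199 CPM in the wild type (−1.31 ± 0.11, adjusted p = 1.16e-05). The ubiquitin ligase gene Herc4 had 109.8, 104, 97 and 109.6 CPM in the mutant and 202, 202, 178, 204 and 193 CPM in the wild type (−0.90 ± 0.08, adjusted p = 1.68e-05), and Rgk1, a small GTPase gene expressed in the mushroom body, had 108, 105, 105 and 85.8 CPM in the mutant and 197, 175, 178, 174 and 169 CPM in the wild type (−0.82 ± 0.09, adjusted p = 9.37e-05). Within each of these 4 genes the libraries of a genotype differed by much less than the genotypes did.

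**Figure D4:**
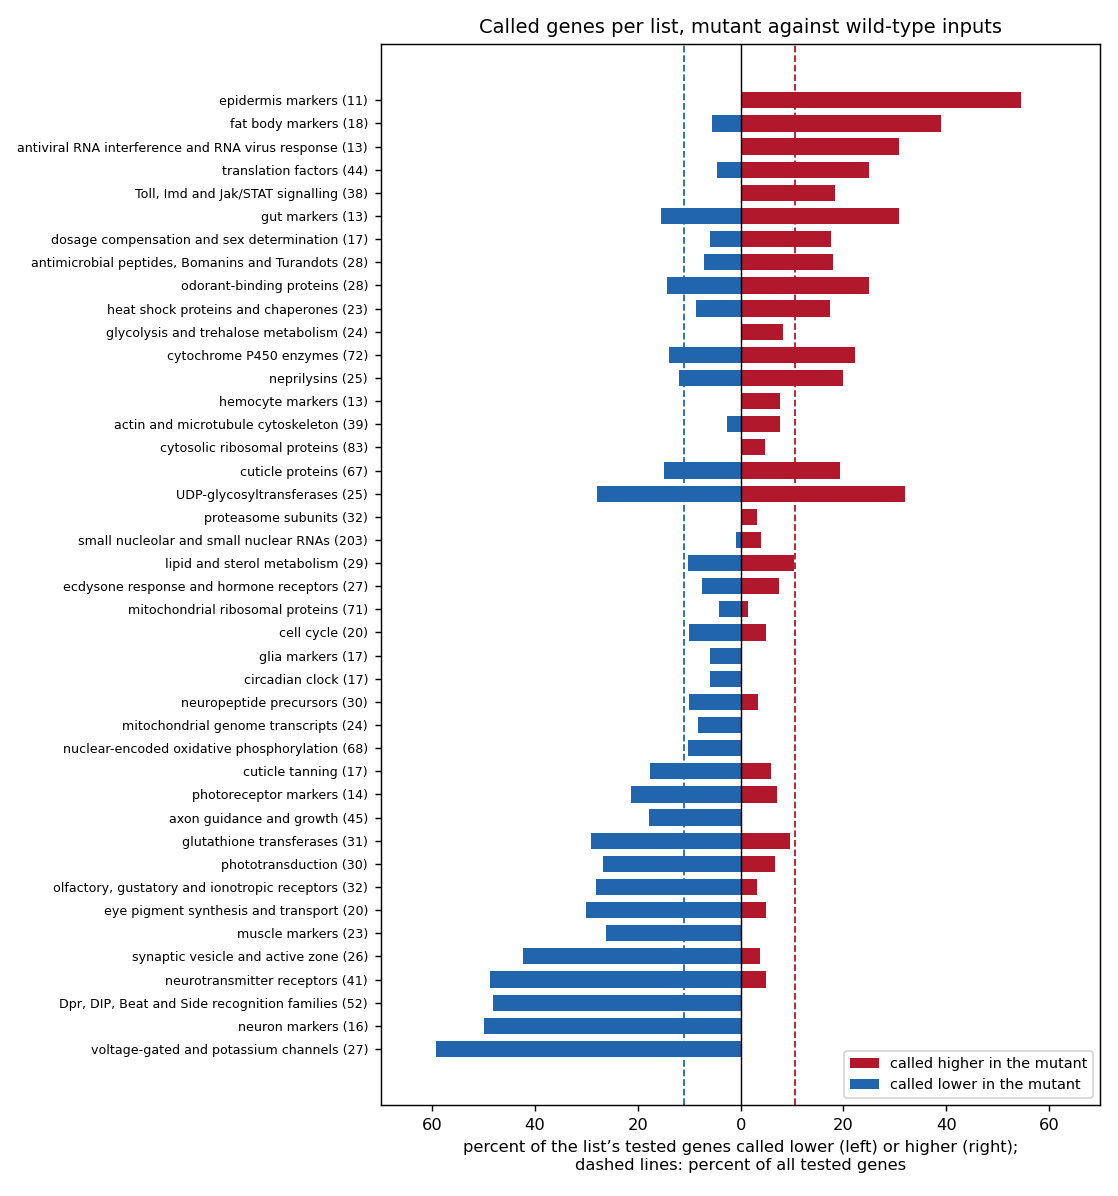
Percent of the tested genes of each list with at least 10 tested genes (number in brackets) that were called higher in the mutant (red, to the right) or lower (blue, to the left) at an adjusted p under 0.05. Dashed lines mark the 10.6% called higher and 11.1% called lower among all 10435 tested genes. Channels, neuron markers, recognition genes, receptors and synaptic genes extend farthest to the left, and epidermis and fat body markers farthest to the right.

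Called genes were spread over the genome. The share called was 22.8% on X, 21.8% on 2L, 21.3% on 2R, 21.6% on 3L, 21.7% on 3R and 17.8% on the small arm 4. Ythdf lies on 3R. Of 139 other tested genes that start within 500 kb of its start, 37 were called (26.6%, 25 higher and 12 lower), against 514 of 2406 (21.4%) on the rest of the arm. The exact 95% binomial interval of the first share was 19.5 to 34.8%, which includes the rest of the arm. The interval pools both directions and takes neighbouring genes as independent, so it cannot decide whether there is a local excess. By direction, the whole arm had 275 higher and 277 lower of 2546, against the 25 and 12 of 139 near Ythdf. Within 1000 kb the share was 21.2%, with 32 higher and 20 lower of 245. Large differences occurred there all the same. Besides CG11893 and tobi, CG31436 had 47.3, 44.4, 40.9 and 37.6 CPM in the mutant and 9.16, 6.25, 7.67, 5.61 and 6.86 CPM in the wild type (2.60 ± 0.14, adjusted p = 1.45e-07), and CG31370 had 13.2, 12.9, 13.9 and 11.1 CPM in the mutant and 4.11, 4.27, 4.78, 5.73 and 3.98 CPM in the wild type (1.47 ± 0.13, adjusted p = 1.67e-05). Both belong to the same kinase-like family as CG11893. Cftr (0.69 ± 0.08, adjusted p = 0.000102) and Stt3B, an oligosaccharyltransferase subunit gene (0.53 ± 0.08, adjusted p = 0.00117), rose, and sosie fell (−0.89 ± 0.12, adjusted p = 0.000331).

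**Figure D5:**
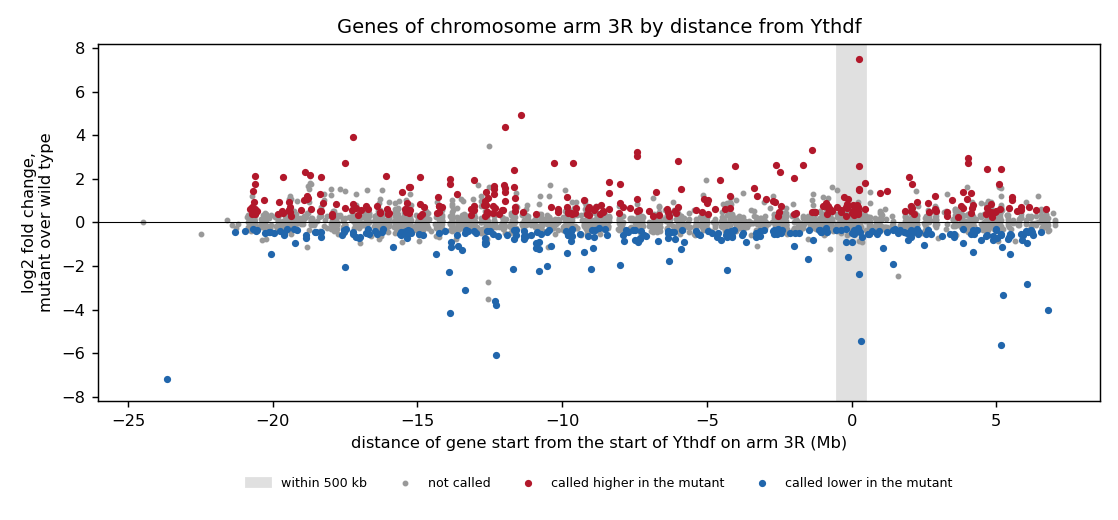
Log2 fold change (mutant over wild type, vertical axis) of each tested gene of chromosome arm 3R against the distance of its start from that of Ythdf in Mb, with genes called higher in red, called lower in blue and not called in grey. The grey band marks 500 kb on each side, where 37 of 139 genes were called against 514 of 2406 on the rest of the arm.

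The pull-down libraries were made from the same lysates so they do not give an independent reading of the genotype difference. Fitted alone, the Fmr1 libraries had 345 of 10071 genes called between mutant and wild type (3.43%), 166 higher and 179 lower, and the shallow IgG libraries 47 of 6246 (0.752%), 31 higher and 16 lower. Of the genes called in the inputs, 2171 could be tested in the Fmr1 libraries, where 2090 had the same sign and 299 were called in the same direction. These 299 are 13.8% of the input calls tested there and 86.7% of the Fmr1 calls. In the IgG libraries 1493 could be tested, 1377 had the same sign and 45 were called in the same direction, 3.01% of the input calls tested and 95.7% of the IgG calls. No gene was called in opposite directions between inputs and either kind of pull-down. Genes higher in mutant inputs had a median log2 fold change of 0.54 in Fmr1 and 0.55 in IgG libraries, and genes lower in mutant inputs −0.37 and −0.39.

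The strongly changed genes named next kept their direction, while 81 input calls in the Fmr1 libraries and 116 in the IgG libraries had the opposite sign. In the Fmr1 libraries Ugt35B1 differed by −4.27 ± 0.30, pst by 1.57 ± 0.21, mAChR-A by −0.77 ± 0.12, DIP-epsilon by −1.0 ± 0.14 and pr by −1.76 ± 0.42 (log2 fold change, mutant over wild type). Adjusted p-values (edgeR's quasi-likelihood test over the Fmr1 libraries) were 3.09e-05, 0.00193, 0.00654, 0.00215 and 0.0501 in that order. Channels, recognition genes and receptors had negative medians in both kinds of pull-down as well. They were −0.30 in Fmr1 and −0.53 in IgG libraries for channels, −0.26 and −0.60 for recognition genes, and −0.29 and −0.44 for receptors, against 0.01 and −0.01 over all genes of each kind. Guidance genes were at −0.16 and −0.19, synaptic genes at −0.14 and −0.08 and neuron markers at −0.19 and −0.06. Neuropeptide precursors were positive, at 0.17 and 0.07. Few genes of these lists were called, with 1 channel, 1 recognition gene and 1 receptor lower in the Fmr1 libraries and none in the IgG libraries. Small nucleolar and small nuclear RNAs went against the inputs, with medians of −0.44 in Fmr1 and −0.15 in IgG libraries against 0.79 in the inputs.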

How the data were processed

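The authors deposited 1 table of read counts per gene for 27 libraries, and the 9 input libraries were used here, with the Fmr1 and IgG libraries for the last comparison. Per the labels' protocols, the libraries came from a strand-specific kit with rRNA depletion and unique molecular identifiers. Per the submitters' processing notes, bcl2fastq 2.20, Trim Galore and STAR were used. The build, the counter and the use of strand and identifiers in counting are not given in the sources used here. Rows that name no gene were left out of library sizes and tests, and they held 37.3 to 63.4% of the reads of an input. Gene names, arms, starts and exon lengths come from the Ensembl BDGP6.54 annotation (release 115), which matched 17710 of the 17807 identifiers.

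Genes were filtered with filterByExpr (minimum count 10, total 15), scaled with TMM and fitted with edgeR 4.0.16 (R 4.3.3) by robust quasi-likelihood. Tests are two-sided, with Benjamini-Hochberg adjustment over all genes tested and calls under 0.05. SE is the log2 fold change divided by the square root of F. DESeq2 1.42.0 and limma voom 3.58.1 were alternatives, and other scalings, filters, sample subsets and omitted libraries were tried. The edgeR code was tested on simulated data. P-values measure the spread between libraries labelled as biological replicates. Intervals and floors cover counting error only.

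Deviations of same-numbered mutant and wild-type inputs from their group means had correlations over genes of 0.159, 0.199, 0.141 and 0.373 for replicates 1, 2, 3 and 7. Pairs of unlike number ranged from −0.459 to 0.270. Some of them were above matched pairs, such as mutant 2 with wild type 5 (0.270) and mutant 3 with wild type 2 (0.217). The labels do not say that a number is shared between genotypes, so the pairing is not established. Each same-numbered correlation was over 0.1, so a fit with replicate number as a block is given as an alternative. It is printed where it changes a call or moves a count by over 1.5 times. The block fit uses the 4 shared numbers and gave 2307 called genes. No 2 libraries held identical values or agreed within sampling noise.

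Gene lists and the text's genes were chosen with earlier results of these data known. Named genes were the 15 largest called changes each way without overlap between genotypes and averaging 2 or more in log2 CPM, the m6A genes, up to 4 called genes per list, taken by p, the 10 most abundant genes detected in 1 stock, the 10 smallest p within 500 kb of Ythdf, and the 15 smallest p among called genes of at least 100 CPM. Not all of these are printed. Exceptions to this rule are marked, besides Fmr1, which the series is about, and Cyp12d1-d, Cyp12d1-p and eIF4E1, chosen after their values were seen. No sequences are printed.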

Additional observations from a re-analysis of the deposited data

Results flagged for a closer look

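In 33 of 282 groups of values behind the text, 1 library lay apart from the others of its genotype, with a gap to its nearest neighbour that took up more of the group's range than Dixon's 95% limit allows. Chance gives such a gap in about 1 in 20 groups. The ratio of gap to range is given for each. Mutant replicate 7 was the highest mutant library for Amy-p (0.963), AttC (0.951), BomS1 (0.859), Hsc70-2 (0.855), Hsc70-3 (0.839), PGRP-SB1 (0.953), serp (0.877), upd2 (0.961) and verm (0.866). Mutant replicate 7 was the lowest mutant library for Dscam2 (0.872), EndoA (0.852), PK2-R2 (0.867), Pu (0.964), Rgk1 (0.86) and rdgA (0.929). Mutant replicate 1 was the lowest mutant library for Cftr (0.84) and Hk (0.883). Mutant replicate 2 was the highest mutant library for CG13050 (0.993) and twe (0.844). Mutant replicate 3 was the highest mutant library for GluRIIC (0.968). Wild-type replicate 1 was the highest wild-type library for CG13050 (1), EndoA (0.766), Pu (0.735), eIF4E1 (0.779), pr (0.799) and upd3 (0.738). Wild-type replicate 2 was the lowest wild-type library for Cyt-c-p (0.771) and eIF6 (0.721). Wild-type replicate 3 was the highest wild-type library for AttC (0.775). Wild-type replicate 5 was the highest wild-type library for ND-15 (0.755). Wild-type replicate 7 was the highest wild-type library for Cpr51A (0.713) and Hsp67Bc (0.737). In total gene counts, mutant replicate 7 lay below the other mutant inputs, at 9207492 against 14391664 to 15459370 (0.8292). The gaps of mutant replicate 7 include immune genes, with PGRP-SB1 at 8.61 CPM against 3.13 to 3.39 CPM in the other mutant inputs and upd2 at 11.4 against 4.93 to 5.18 CPM.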

How the results depend on the processing

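Of 127 called genes with values in the text, none changed direction in any setting tried. DESeq2 lost 0 of the 127 calls, RLE factors 1, limma voom 1 and a fit without the filter 3. Library size as the only scaling lost 7, replicates 2 and 3 alone 24, replicates 1, 5 and 7 alone 37, and 1 fit of all 27 libraries 49. Leaving out 1 library lost 9 of the 127 calls in at least 1 case, and the genes concerned are named with their values. These genes were mostly chosen by small p or large change, so they do not stand for all calls. Of all 2264 called genes, 1608 to 1916 were called again in the same direction with 1 library left out. In the fit of all 27 libraries 609 were. The total of called genes was 2264, and 1655 to 2155 with 1 library left out. It was 652 in the fit of all 27 libraries (382 higher, 270 lower) and 867 with replicates 1, 5 and 7 alone (483 higher, 384 lower). Library size as the only scaling gave 2180 higher and 593 lower, a change that follows from TMM factors above 1 in the mutant and below 1 in the wild type. The replicate block gave 2307 called genes and, beyond the counts and the loss of Syt7 printed with their lists, changed no call of a gene printed here. Genes called in the Fmr1 libraries numbered 633 in the fit of all 27 libraries against 345 alone, and in the IgG libraries 490 against 47. The cause of the other moves was not tested.

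Genes detected in the mutant alone numbered 13, and 2 with 0 counts required in the wild type, 31 with a mean of at least 1 CPM and 5 with at least 5 CPM. Those detected in the wild type alone numbered 3, and 0, 14 and 1 under the same changes. The ceiling in counts was not scaled to the depth of a library. Differences that were not called crossed 0 in some settings. fl(2)d was at 0.051 on the log2 scale with library size only. Flacc was at −0.0099 with replicates 2 and 3 alone and between −0.00067 and 0.11 with 1 library left out. Fmr1 was at 0.0046 with upper-quartile factors, 0.13 with library size only, 0.020 with the replicate block, 0.022 with the replicate set as a covariate, 0.21 with replicates 2 and 3 alone, and between −0.086 and 0.035 with 1 library left out. At 5623123 to 15459370 gene counts per input, genes under about 1 CPM rest on few reads, and 7372 genes could not be tested.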
